A study of Mus musculus with 6 samples.

Results

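The 32 genes described here carry out and control the supply of cholesterol in cells. They are a pathway list of named genes: 18 encode enzymes of sterol synthesis, 7 encode the SREBP transcription factors and the proteins that activate or retain them, 5 encode the LXR receptors and their efflux and uptake targets, and 2 encode proteins of sterol transfer and storage. All 32 were among the 32544 genes of the table and passed the filter on low values. They and the neighbouring gene lists used below were chosen with earlier results of these data known. Their shares set against all tested genes are therefore a description only. RNA came from S2 and S3 segments of the proximal tubule of C57Bl/6 mice, taken 24 h after a single injection at 3 mg/kg of aristolochic acid I, a plant nephrotoxin whose metabolites bind to DNA (group AA), or of dimethyl sulfoxide as the control (group DMSO), with 3 libraries per group. From each kidney 5 to 10 hand-dissected tubules were pooled. The labels give no age and do not say whether libraries of a group came from separate mice, so p-values measure the spread between these libraries, which may be technical.

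Cholesterol is built in the endoplasmic reticulum from acetyl-CoA, first through mevalonate to the isoprenoid farnesyl pyrophosphate, then through squalene and lanosterol to the finished sterol. When membrane sterol is low, the escort protein SCAP carries the precursor SREBP to the Golgi, where the proteases encoded by Mbtps1 and Mbtps2 cut it, and the freed factor switches on the enzyme genes. When sterol is plentiful, INSIG proteins hold SCAP back, and oxysterols activate the LXR receptors, which switch on export of cholesterol. In bulk tissue, fewer cells of a type and less RNA per cell cannot be told apart.

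Library totals ran from 13304877 to 31136251 reads. DMSO replicates 1 and 2 were the deepest, at 23896026 and 31136251 reads, and the other 4 libraries held at most 17815915. A single read was worth 0.0321 to 0.0752 CPM (reads scaled to the library total). Within DMSO, replicates 1 and 2 stood apart from the other 4 libraries by more than 2 on the log2 scale for 40 tested genes, of which 0 were among the 32. Results are therefore also given from a fit with a term for these 2 libraries, called the library-set fit, in which the AA effect rests on DMSO replicate 3 as the only control. A call lost in that fit comes with a less precise estimate and does not by itself show a weaker change. Among genes that lost their call, some log2 differences moved towards 0, as for Nsdhl (-0.85 to -0.65) and Stard4 (-0.86 to -0.74). Others moved away from it, as for Lss (-0.63 to -0.77) and Srebf2 (-0.59 to -0.70). Of 14311 tested genes 30.9% were called, 22.3% higher and 8.66% lower in AA (limma's moderated test, Benjamini-Hochberg adjusted p under 0.05). Effects are given as the log2 difference, the AA mean minus the DMSO mean of log2(CPM + 1), which is a log2 fold change. Over all tested genes its median was 0.21, so that values relative to it are 0.21 lower than those printed. When library medians were equalised 28.3% were called, 11.7% higher and 16.6% lower. Markers of the proximal tubule summed to 11543 to 15638 CPM in DMSO and 6235 to 7959 CPM in AA, with 3 of 8 lower and 1 higher. Lrp2 was the largest part of each sum, at a mean of 7282 CPM in DMSO and 2704 CPM in AA. Slc5a2 was the marker that rose (log2 difference 0.71). Slc34a1, Slc5a12, Slc22a6 and Aqp1 were not called, so the sum does not stand for all 8 markers. Of 5 collecting duct markers, 3 were higher, and they summed to 16.8 to 35.3 CPM in DMSO and 52.5 to 98.4 CPM in AA, most in AA replicate 2. Of 3 thick ascending limb markers 0 were called. The log2 differences of Slc12a1, Umod and Cldn16 were 1.06, 0.94 and 0.68, and in the library-set fit 1.84, 2.00 and 1.17. These markers summed to 155 to 452 CPM in DMSO and 282 to 1209 CPM in AA, ranges that overlapped, again with most in AA replicate 2. Of 4 endothelial and 4 macrophage markers 1 each was higher, where 22.3% of all tested genes rose. They were Pecam1 (log2 difference 0.61, limma adjusted p = 0.0197) and Lyz2 (1.21, adjusted p = 0.0233). Lyz2 was low, at means of 1.77 CPM in DMSO and 5.78 CPM in AA. Csf1r, the largest part of the macrophage sum, had means of 205 and 144 CPM (-0.50, limma adjusted p = 0.0773). With library medians equalised Csf1r was called lower (-0.77, adjusted p = 0.0166). Adgre1 and C1qa were not called (0.45 and 0.59). The summed ranges of endothelial, macrophage, podocyte, adipocyte and adrenal cortex markers overlapped between groups, and 0 markers of any list were at 0 in every library. The part of these markers in the results below was not tested.

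Much of the sterol synthesis pathway was lower in AA tubules. Of the 18 enzyme genes, 10 fell and 0 rose in limma's test, a share of 55.6% lower against the 8.66% of all tested genes. At an unadjusted p under 0.05, 10 were lower and 0 higher, and voom on reads recovered from the table gave the same counts at an adjusted p under 0.05. The share of all tested genes at an unadjusted p under 0.05 is not given. Such unadjusted counts, here and below, are therefore a description only. The 10 were Hmgcs1, Mvk, Mvd, Idi1, Fdft1, Lss, Cyp51, Nsdhl, Ebp and Dhcr7, spread from the first committed steps to the last. The median log2 difference of the 18 was -0.53, or -0.74 relative to all genes. In the library-set fit 4 were called, all lower, where 10.3% of all tested genes were called, 7.39% higher and 2.96% lower. They were Hmgcs1, Mvd, Idi1 and Cyp51, and 9 were lower and 0 higher at an unadjusted p under 0.05. The median of the 18 in that fit was -0.59. Of the 6 that lost their call, Lss, Mvk, Fdft1, Dhcr7, Nsdhl and Ebp had log2 differences of -0.77, -1.06, -0.84, -0.92, -0.65 and -0.32 there, with adjusted p from 0.0561 (Lss) to 0.369 (Ebp). Hmgcs1, Mvd, Idi1 and Cyp51 also kept their calls in every other alternative that was run.

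**Figure D1:**
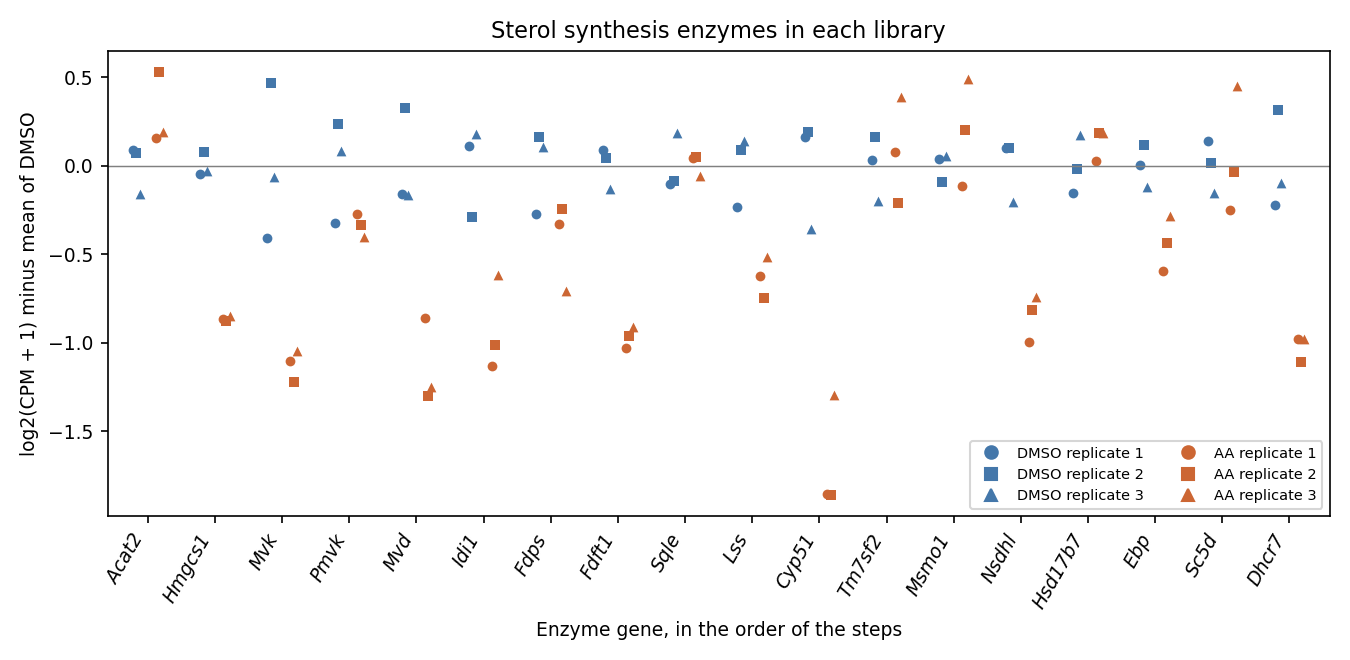
Each point is 1 library, as log2(CPM + 1) minus the mean of the 3 DMSO libraries, for the 18 enzyme genes in the order of their steps (blue DMSO, orange AA, symbols for replicates). The AA points lie below all DMSO points for 10 genes, against 13% of all tested genes, and Cyp51 lies lowest. Pmvk, Fdps, Sqle, Tm7sf2, Msmo1, Hsd17b7 and Sc5d overlap between groups.

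The largest decrease among the 32 genes was that of Cyp51, which encodes lanosterol 14-alpha-demethylase, the first enzyme to act on lanosterol. Its level was 585, 595 and 407 CPM in DMSO replicates 1 to 3 and 143, 143 and 212 CPM in AA. The groups did not overlap, and the highest AA library and the lowest DMSO library were both replicates numbered 3. The mean went from 529 ± 106 to 166 ± 40.0 CPM (SD, n = 3 each), a log2 difference of -1.67 (SE 0.20, limma adjusted p = 0.000196). In the library-set fit it was -1.31 (adjusted p = 0.00535). Cyp51 lies on chromosome 5 from 4080674 to 4104697 (GRCm38.p6).

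Hmgcs1 encodes the cytosolic HMG-CoA synthase, which joins acetyl-CoA to acetoacetyl-CoA. It stood at 1043, 1136 and 1053 CPM in DMSO and at 590.3, 586 and 597 CPM in AA. The AA libraries were close to each other (SD 5.79 CPM) and below every DMSO library. The log2 difference was -0.86 (SE 0.14, limma adjusted p = 0.00135), and -0.83 in the library-set fit (adjusted p = 0.0273). Hmgcs1 lies on chromosome 13 from 119690351 to 119708260. Of the 31-base words of its transcripts, 13.1% also occurred in GENCODE M21 transcripts of other genes, so that some of its reads could be assigned elsewhere.

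Promoter stretches of 7 enzyme genes are shown because SREBP acts at promoters together with the factors NF-Y and Sp1, and because these genes differed in response. Each is the 150 bases before the transcription start, 5′ to 3′ on the gene's strand, from RefSeq's GRCm38.p6 table. Capitals mark matches on either strand to the sterol element TCACNCCAC, the E-box CACGTG, the NF-Y box CCAAT or the GC box GGGCGG. The first 5 belong to genes that fell and the last 2 to genes that were not called.
Hmgcs1 (chr13:119690201-119690350, plus strand): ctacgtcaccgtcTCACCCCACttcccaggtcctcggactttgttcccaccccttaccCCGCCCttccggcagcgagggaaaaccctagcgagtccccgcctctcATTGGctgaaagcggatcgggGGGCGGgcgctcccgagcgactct
Mvd (chr8:122443423-122443572, minus strand): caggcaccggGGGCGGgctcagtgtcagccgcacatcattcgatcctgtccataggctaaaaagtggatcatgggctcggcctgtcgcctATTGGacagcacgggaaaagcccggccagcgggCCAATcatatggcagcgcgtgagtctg
Idi1 (chr13:8885456-8885605, plus strand): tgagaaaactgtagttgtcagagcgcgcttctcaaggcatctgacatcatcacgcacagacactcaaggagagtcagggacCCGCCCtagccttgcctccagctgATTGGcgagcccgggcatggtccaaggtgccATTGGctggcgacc
Cyp51 (chr5:4104698-4104847, minus strand): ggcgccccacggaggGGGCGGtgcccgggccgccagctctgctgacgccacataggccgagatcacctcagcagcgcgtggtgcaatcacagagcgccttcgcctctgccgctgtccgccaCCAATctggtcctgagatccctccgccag
Nsdhl (chrX:72918371-72918520, plus strand): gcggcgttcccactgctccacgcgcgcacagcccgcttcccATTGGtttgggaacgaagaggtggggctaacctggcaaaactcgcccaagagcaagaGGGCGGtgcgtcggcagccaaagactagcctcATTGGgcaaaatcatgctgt
Msmo1 (chr8:64733579-64733728, minus strand): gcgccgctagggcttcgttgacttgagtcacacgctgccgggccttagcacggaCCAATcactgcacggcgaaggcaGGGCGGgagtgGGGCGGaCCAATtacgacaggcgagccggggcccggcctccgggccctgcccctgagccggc
Hsd17b7 (chr1:169969206-169969355, minus strand): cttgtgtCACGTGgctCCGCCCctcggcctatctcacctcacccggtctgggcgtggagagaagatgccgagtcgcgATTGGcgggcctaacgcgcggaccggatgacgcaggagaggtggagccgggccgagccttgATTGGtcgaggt

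The sterol element was matched in the window of Hmgcs1, starting 137 bases before the start, and in 1 of the 15 enzyme genes that had a window in the table. Windows ran from 250 bases before to 50 after the start. Of all 32851 windows outside chromosome 18, 1.24% held that element, 7.15% the E-box, 37.4% the CCAAT box and 35.7% the GC box. By gene, 41.1% of all genes and 14 of the 15 enzyme genes had a CCAAT box in at least 1 window. The box was found in 9 of 9 enzyme genes that fell and in 5 of 6 that were not called. Dhcr7 counted only through its window 3 (chr7:143829964-143830263), which lies inside the gene. With matches in nearly every gene of both groups, presence of the box could hardly separate them. Matches to different motifs overlapped at 0 places in the genes' windows. A match describes letters and not a bound site, and the motifs were picked from general knowledge. Windows were found for 27 of the 32 genes, and those of Fdps, Fdft1, Sqle, Abcg1 and Stard4 were not used here.

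Between Hmgcs1 and squalene, the kinase and decarboxylase steps of mevalonate and the isomerase step were lower. Mvk, mevalonate kinase, had 13.5, 25.6 and 17.4 CPM in DMSO and 7.97, 7.24 and 8.33 CPM in AA. The DMSO libraries were widely spread, yet all lay above the AA libraries. Its log2 difference was -1.12 (SE 0.24, adjusted p = 0.00588 in limma). Mvd, mevalonate diphosphate decarboxylase, had 54.7, 77.0 and 54.5 CPM in DMSO and 33.3, 24.2 and 25.1 CPM in AA. Its groups did not overlap either, and the log2 difference was -1.14 (SE 0.19, adjusted p = 0.00145 in limma). Idi1, which interconverts the isopentenyl and dimethylallyl units, had 189, 142 and 198 CPM in DMSO and 79.0, 86.1 and 113 CPM in AA, again without overlap (log2 difference -0.92, SE 0.17, limma adjusted p = 0.00311). Idi1 shared 27.1% of its words with other genes, 18.4% with Gm13502.

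Pmvk, the phosphomevalonate kinase between Mvk and Mvd, was low, with 3.01 to 4.91 CPM in DMSO and 2.80 to 3.16 CPM in AA. The groups overlapped, and its log2 difference of -0.34 had a 95% interval of -0.89 to 0.22. Fdps, which makes farnesyl pyrophosphate, had 11.2 to 15.4 CPM in DMSO and 7.97 to 11.4 CPM in AA, with overlap and a log2 difference of -0.43 (limma adjusted p = 0.158). With library medians equalised Fdps was called lower (-0.68, adjusted p = 0.0284). Fdps shared 27.9% of its words with transcripts of other genes.

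Acat2, the cytosolic thiolase that makes acetoacetyl-CoA, was the only enzyme gene with every AA value above every DMSO value, as 33.4% of all tested genes were. It had 82.8, 81.8 and 69.5 CPM in DMSO and 87.0, 113 and 88.9 CPM in AA, with a log2 difference of 0.29 (95% interval -0.03 to 0.62, limma adjusted p = 0.153). Acat3, a near copy beside it on chromosome 17, was named after its values were seen and rose from 8.98 ± 0.992 to 58.8 ± 10.8 CPM (n = 3 each), a log2 difference of 2.57 (SE 0.18, limma adjusted p = 8.86e-06). The transcripts of Acat2 shared 43.8% of their 31-base words with those of Acat3, so reads could be assigned to either gene and the level of Acat2 is uncertain.

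At the entry to squalene and lanosterol the genes differed. Fdft1, squalene synthase, had 26.7, 25.8 and 22.7 CPM in DMSO and 11.7, 12.3 and 12.9 CPM in AA, with tight groups that did not overlap. Its log2 difference was -0.97 (SE 0.17, adjusted p = 0.00228 in limma). Fdft1 shared 31.9% of its words with transcripts of other genes, 17.6% with Ctsb. Sqle, squalene epoxidase, which controls flux at the next step, had 198, 200.3 and 242 CPM in DMSO and 219, 219.8 and 204 CPM in AA. The groups overlapped fully, and the log2 difference was 0.01 with a 95% interval of -0.28 to 0.30. Equalised library medians gave -0.26 for Sqle (adjusted p = 0.186). Lss, which closes the sterol rings to lanosterol, fell from 46.5 ± 6.35 to 29.5 ± 2.45 CPM (log2 difference -0.63, SE 0.16, limma adjusted p = 0.013), a call that was lost without AA replicate 2 (-0.57, adjusted p = 0.0559).

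Ratios within a library are free of any factor that multiplies the whole library, though quantile normalization can change them. The ratio of Cyp51 to Sqle was 2.95, 2.97 and 1.68 in DMSO and 0.654, 0.650 and 1.04 in AA. That of Hmgcs1 to Sqle was 5.27, 5.67 and 4.35 in DMSO and 2.69, 2.67 and 2.93 in AA. Nsdhl to Msmo1, 2 enzymes that act together on the methyl groups of the sterol, stood at 1.05, 1.15 and 0.834 in DMSO and at 0.529, 0.483 and 0.416 in AA. The groups did not overlap in any of these 3 ratios, which were chosen after the values were seen. Since each sets a gene that fell against one that did not, they are a description. The two-sided exact permutation p was 0.1 for each, also when adjusted over the 3, and 0.1 is the smallest that 3 against 3 libraries allow. The size of each ratio also depends on the lengths of both genes, so the change between groups is what can be read.

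Beyond Cyp51, the later enzymes were divided. Nsdhl, a sterol dehydrogenase of demethylation, had 39.1, 39.1 and 31.5 CPM in DMSO and 17.7, 20.3 and 21.4 CPM in AA (log2 difference -0.85, SE 0.17, limma adjusted p = 0.00381). Dhcr7, which makes cholesterol from 7-dehydrocholesterol, had 22.6, 33.3 and 24.8 CPM in DMSO and 13.0, 11.8 and 13.0 CPM in AA (log2 difference -1.02, SE 0.19, limma adjusted p = 0.00309). Neither gene overlapped between groups. Ebp, the sterol isomerase, went from 61.5 ± 5.11 to 45.2 ± 4.99 CPM, a log2 difference of -0.44 (SE 0.15, adjusted p = 0.0404 in limma). The call of Ebp held without DMSO replicate 3 and was lost without each of the other libraries, with adjusted p up to 0.128.

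Msmo1, Hsd17b7, Sc5d and Tm7sf2, which act on the methyl groups, the keto group and the double bonds of the sterol, did not pass. Msmo1 had 34.0 to 37.7 CPM in DMSO and 33.5 to 51.5 CPM in AA, and Hsd17b7 had 48.0 to 60.5 and 54.6 to 61.1 CPM. Sc5d had 27.2 to 33.6 CPM in DMSO and 25.4 to 42.0 CPM in AA, and Tm7sf2 had 9.02 to 11.9 and 8.92 to 14.1 CPM. All 4 overlapped between groups. Their log2 differences were 0.20, 0.13, 0.06 and 0.09, and each was below 0 with library medians equalised (-0.070, -0.13, -0.21 and -0.16). The upper 95% limits were 0.58, 0.45, 0.49 and 0.58, and the lower limits -0.19, -0.18, -0.37 and -0.41. The fall of the other enzymes was not tested against these values.

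Of the 7 genes of the SREBP machinery, 2 fell and 0 rose in limma's test, or 3 and 0 at an unadjusted p under 0.05 and 2 and 0 with voom. That is 28.6% lower, against 8.66% of all tested genes. Their median log2 difference was -0.35, or -0.56 relative to all genes. With library medians equalised 4 were called lower, against 16.6% of all tested genes. In the library-set fit 0 were called, 0 higher and 4 lower at an unadjusted p under 0.05, and without AA replicate 2 the count was also 0.

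Srebf2, which encodes the SREBP mainly responsible for sterol synthesis genes, had 68.4, 94.2 and 89.9 CPM in DMSO and 58.8, 52.4 and 53.9 CPM in AA. All AA libraries were below all DMSO libraries, by little for DMSO replicate 1. The log2 difference was -0.59 (SE 0.15, limma adjusted p = 0.0143), and it did not pass in the library-set fit (-0.70, adjusted p = 0.0664) or without AA replicate 2 (-0.56, adjusted p = 0.0569). Srebf2 lies on chromosome 15 from 82147269 to 82205379. Srebf1, whose products mainly drive fatty acid synthesis, had 55.9, 60.2 and 71.2 CPM in DMSO and 54.7, 41.8 and 46.7 CPM in AA. It did not overlap either, but its log2 difference of -0.38 did not pass (95% interval -0.72 to -0.04, limma adjusted p = 0.0855), and it did with library medians equalised (-0.65, adjusted p = 0.0142).

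Mbtps1, the site-1 protease, had 75.7, 86.8 and 94.996 CPM in DMSO and 74.4, 54.9 and 54.6 CPM in AA. Its log2 difference was -0.49 (SE 0.16, adjusted p = 0.0397 in limma), with AA replicate 1 close to DMSO replicate 1. The call held without DMSO replicate 1 or without AA replicate 1, and was lost without each other library (adjusted p up to 0.141). Mbtps2, the site-2 protease, had 24.9 to 30.2 CPM in DMSO and 27.4 to 34.7 CPM in AA, and 28.0% of its words are shared with Yy2, a gene within its span. Scap had 168 to 213 CPM in DMSO and 165 to 213 CPM in AA, a log2 difference of -0.06 with a 95% interval of -0.38 to 0.27.

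Insig1, itself an SREBP target that closes the feedback loop, had 81.1, 68.2 and 93.1 CPM in DMSO and 57.5, 53.8 and 78.7 CPM in AA. AA replicate 3 lay within the DMSO range, and the log2 difference of -0.35 did not pass (limma adjusted p = 0.146), though it did with library medians equalised (-0.62, adjusted p = 0.0294). Insig2, which is less dependent on SREBP, had 31.8, 25.3 and 20.6 CPM in DMSO and 25.3, 33.1 and 32.9 CPM in AA, a log2 difference of 0.24 with a 95% interval of -0.19 to 0.67. Whether Insig1 and Insig2 differed from each other was not tested.

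**Figure D2:**
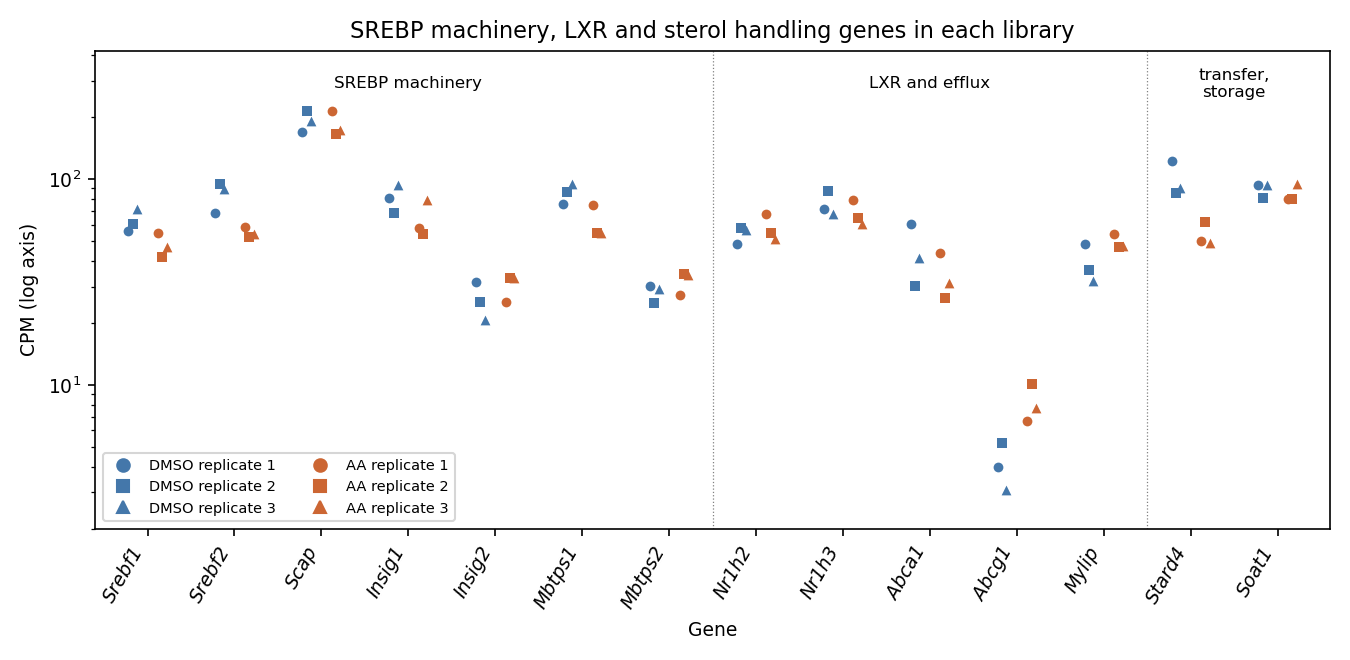
CPM on a log axis in each library for the SREBP machinery, the LXR and efflux genes, and the sterol transfer and storage genes (blue DMSO, orange AA, symbols for replicates). Srebf2, Srebf1, Mbtps1 and Stard4 have all AA points below the DMSO points, as 13% of all tested genes have. Abcg1 has all AA points above them, as 33.4% of all tested genes have, and the other 9 genes overlap.

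Among the 5 LXR and efflux genes, 1 rose and 0 fell in limma's test, where 22.3% of all tested genes rose. At an unadjusted p under 0.05 and with voom the counts were also 1 and 0. The receptors Nr1h2 (LXR beta) and Nr1h3 (LXR alpha) had 48.1 to 57.8 and 67.8 to 87.5 CPM in DMSO, and 50.8 to 67.6 and 60.5 to 79.0 CPM in AA. Their log2 differences were 0.08 (95% interval -0.26 to 0.42) and -0.15 (-0.50 to 0.19). Equalised library medians put Nr1h2 at -0.19.

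The efflux transporters Abca1 and Abcg1, both classical LXR targets, had log2 differences of opposite sign, which were not tested against each other. Abca1, which loads cholesterol onto lipid-poor apolipoproteins, had 60.5, 30.2 and 41.2 CPM in DMSO and 43.7, 26.4 and 31.2 CPM in AA. The spread within DMSO exceeded the difference between groups, and the log2 difference was -0.34 (95% interval -0.89 to 0.21, limma adjusted p = 0.318). Abcg1, which passes cholesterol to formed lipoproteins, had 3.98, 5.20 and 3.07 CPM in DMSO and 6.69, 10.05 and 7.68 CPM in AA. It rose without overlap, with a log2 difference of 0.85 (SE 0.26, adjusted p = 0.0275 in limma). This call was lost with library medians equalised (0.62, adjusted p = 0.0732), in the library-set fit (1.15, adjusted p = 0.0616) and in 4 of 6 fits without 1 library. Those left out DMSO replicate 1 or 3 or AA replicate 2 or 3, with adjusted p up to 0.117.

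Mylip, the ubiquitin ligase IDOL that LXR induces and that removes lipoprotein receptors, had 48.5, 36.1 and 31.9 CPM in DMSO and 54.3, 47.0 and 47.5 CPM in AA. DMSO replicate 1 lay within the AA range. The log2 difference was 0.36 (95% interval -0.02 to 0.74, limma adjusted p = 0.133), and Mylip was called higher without DMSO replicate 1.

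Of the remaining pair, Stard4 fell and Soat1 did not pass. Stard4, a cytosolic sterol carrier and SREBP target, had 122, 85.8 and 90.2 CPM in DMSO and 49.98, 62.1 and 49.1 CPM in AA, without overlap. Its log2 difference was -0.86 (SE 0.17, adjusted p = 0.0035 in limma), and -0.74 in the library-set fit (adjusted p = 0.0681). Soat1, which esterifies cholesterol for storage, had 80.8 to 94.0 CPM in DMSO and 79.7 to 94.9 CPM in AA, a log2 difference of -0.08 with a 95% interval of -0.38 to 0.22.

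**Figure D3:**
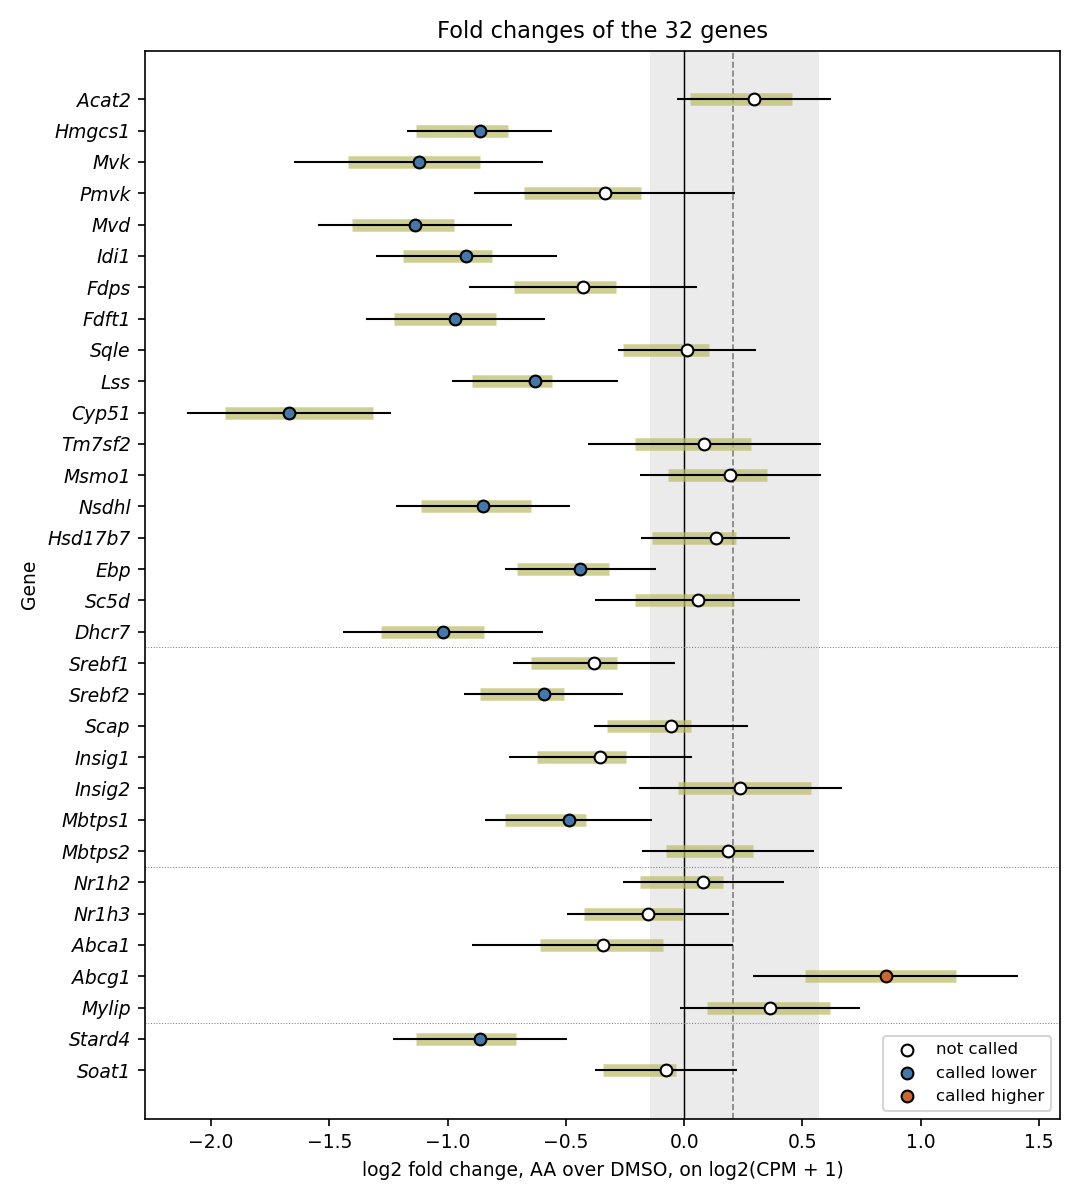
Log2 fold change of AA over DMSO for the 32 genes with 95% intervals (black), the range over up to 17 alternative settings (olive bars) and the call (fill). The grey band holds the middle of all tested genes from the 25th to the 75th percentile, -0.14 to 0.56, around the median of 0.21 (dashed), and 10 of the 18 enzymes are called below it.

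Over all 32 genes, 13 fell, 1 rose and 18 did not pass, or 40.6% lower against 8.66% and 3.13% higher against 22.3% of all tested genes. AA lay below every DMSO value in 14 of them, against 13% of tested genes, and above in 2, against 33.4%. Non-overlapping groups thus made up 16 of the 32, against 46.4% of tested genes. Of the 14 called genes, 9 kept their call whichever library was left out: Hmgcs1, Mvk, Mvd, Idi1, Fdft1, Cyp51, Nsdhl, Dhcr7 and Stard4.

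Of 5 neighbouring lists, 4 had calls in both directions, to be read against the 8.66% lower and 22.3% higher of all tested genes. The first list follows farnesyl pyrophosphate into prenyl chains and protein prenylation. Of its 14 genes, 5 fell (35.7%) and 4 rose (28.6%), with a median log2 difference of 0.14, or -0.13 with library medians equalised. Pdss1 and Pdss2, the subunits that build the ubiquinone side chain, fell from 28.1 ± 3.16 to 17.0 ± 0.605 CPM and from 25.4 ± 2.76 to 12.9 ± 1.55 CPM (n = 3 each; log2 differences -0.69 and -0.93, limma adjusted p = 0.0106 and 0.00358). Coq2, which attaches that chain, rose (0.57, adjusted p = 0.0106), and Fntb, the beta subunit of farnesyltransferase, fell (-0.82, adjusted p = 0.0192). The call of Coq2 was lost with library medians equalised (0.30, adjusted p = 0.116). In the library-set fit 0 of these genes were called, 4 higher and 3 lower at an unadjusted p under 0.05.

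Of 16 lipogenic targets of SREBP-1, 3 fell (18.8% against 8.66%) and 2 rose (against 22.3%), with a median of -0.16. Aacs, which activates acetoacetate for lipid synthesis, fell from 446 ± 101 to 145 ± 51.5 CPM, a log2 difference of -1.66 (SE 0.26, adjusted p = 0.00122 in limma). Acaca, acetyl-CoA carboxylase, fell from 79.1 ± 4.59 to 29.0 ± 2.47 CPM, with -1.42 (SE 0.14, adjusted p = 7.21e-05 in limma). The third was Acss2, which makes acetyl-CoA from acetate (-0.83, adjusted p = 0.00399), named after its values were seen. Mid1ip1, which stimulates acetyl-CoA carboxylase, rose from 25.7 ± 6.67 to 73.5 ± 5.53 CPM (1.51, adjusted p = 0.000227), and Scd2, a stearoyl-CoA desaturase, from 9.86 ± 2.18 to 27.3 ± 4.09 CPM (1.39, adjusted p = 0.00096). Scd2 belongs to a family of similar genes, between which reads can be shared.

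Of 12 genes of SREBP degradation and regulation, 4 rose (33.3% against 22.3%) and 2 fell (16.7% against 8.66%). Fbxw7, the ubiquitin ligase subunit that targets nuclear SREBP, rose from 17.2 ± 0.465 to 35.2 ± 6.10 CPM (log2 difference 0.98, limma adjusted p = 0.00244). Pgrmc1 and the ubiquitin-conjugating enzyme gene Ube2g2 also rose (0.68 and 0.89, adjusted p = 0.00318 and 0.00421). Pgrmc1 did not pass with library medians equalised (0.41, adjusted p = 0.0529).

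Of 16 tested genes of sterol transport and oxysterol metabolism, 2 fell (near the 8.66% of all tested genes) and 1 rose (6.25% against 22.3%). Vldlr, a lipoprotein receptor, and Nceh1, a cholesteryl ester hydrolase, fell (log2 differences -0.56 and -0.57, limma adjusted p = 0.0142 and 0.0151), and both calls were lost in the library-set fit (-0.53 and -0.36, adjusted p = 0.137 and 0.279). Npc2, the lysosomal sterol carrier, rose from 50.4 ± 0.214 to 67.8 ± 1.15 CPM (0.42, adjusted p = 0.0282), and its call was lost with library medians equalised (0.15, adjusted p = 0.408). Among 4 tested further LXR targets, Arl4c, a small GTPase, rose from 1.53 ± 0.104 to 5.98 ± 1.78 CPM (1.43, adjusted p = 0.00312), and 0 fell, with 1 higher and 0 lower at an unadjusted p under 0.05 and with voom.

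**Figure D4:**
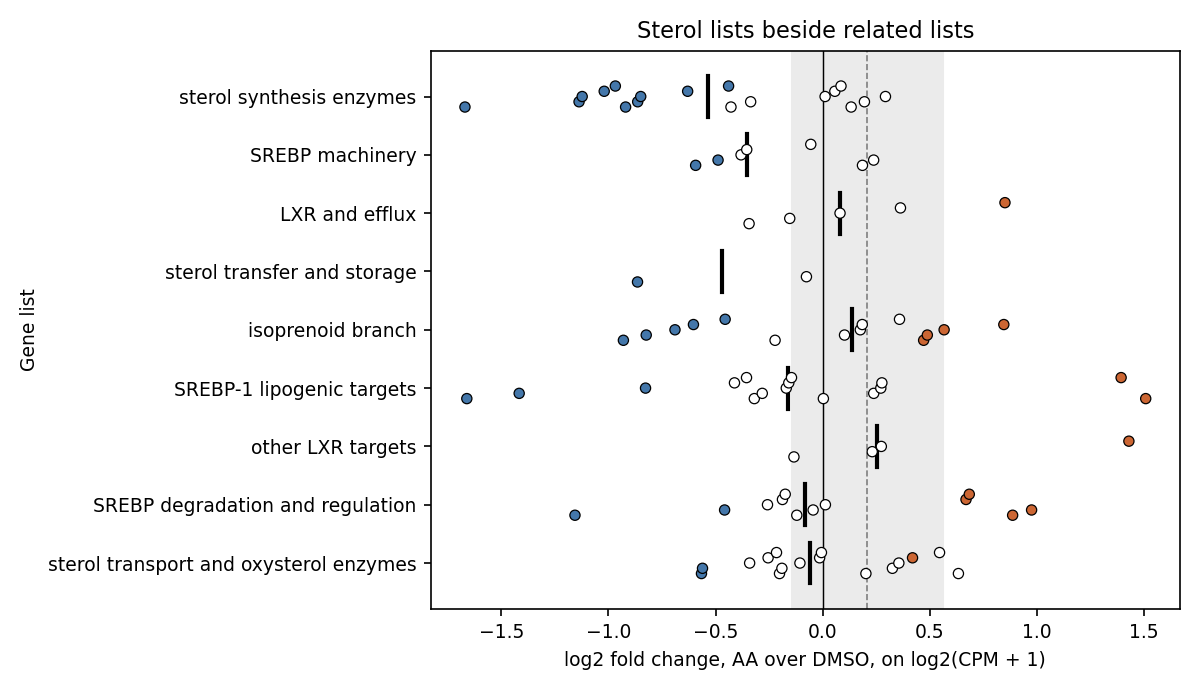
Log2 fold change of AA over DMSO for each tested gene of 9 lists (blue called lower, orange called higher, white not called), with the list median as a black bar and the grey band and dashed line as percentiles 25 to 75 and the median of all tested genes. The synthesis enzymes have a median of -0.53 with calls in 1 direction. The SREBP machinery, LXR and efflux, transfer and storage, and other LXR target lists also have calls in 1 direction only. The isoprenoid, lipogenic, SREBP degradation and sterol transport lists have calls in both.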

How the data were processed

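Per the labels' protocols, tubule RNA was isolated by PicoPure and sequenced as TruSeq Stranded mRNA libraries. The tools named were bcl2fastq 2.19 and kallisto (no version or role), with the build mm10, per the submitters' processing notes; the annotation and strand setting used are not given in the sources. The authors deposited log10(CPM + 1) values, as the column sums show, for 32544 genes in 6 libraries. These were turned back to CPM, and whole reads were recovered for 100% of values within 0.1 read. The 14311 genes reaching 1 CPM in 3 or more libraries were tested as log2(CPM + 1) with limma 3.58.1 and a variance trend in R 4.3.3, two-sided, with Benjamini-Hochberg adjustment over all of them. The design had assumed a log CPM table and needed no change of test. The script was tested on simulated data. Fold changes on this scale understate those of low genes.

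The 32 members and the lists were chosen with earlier results of these data known. The text names all members, and of each related list up to 4 called genes with the smallest adjusted p; further genes are said to be named after their values were seen. A gene that this rule names is not reported here. Shared 31-base words were counted over GENCODE M21 transcripts, both strands. The alternatives were 3 scalings, 2 filters, 2 pseudocounts, a robust variance, voom, a replicate block, the library-set term and leaving out each library. Abcg5, Abcg8 and Ch25h did not pass the filter.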

Additional observations from a re-analysis of the deposited data

How the results depend on the processing

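Of the 14 called members, 14 kept their call with a filter of 4 CPM, a pseudocount of 5 or 0.1, a robust variance and voom, 13 under each of the 3 scalings and 4 in the library-set fit; the cause was not tested. No called member changed sign in any of the 17 alternatives. Of all tested genes 3187 were higher and 1239 lower; with medians equalised it was 1676 and 2381 (41.3% higher, against 72.0%), after quantile normalization 1822 and 2077, with TMM factors 1931 and 2067, and in the library-set fit 1058 and 423. Without 1 library, higher calls ranged from 1694 to 2851 and lower calls from 790 to 1118, both lowest without AA replicate 2. Lower synthesis enzymes numbered 4 in the library-set fit and 11 under each scaling. Lower SREBP machinery genes numbered 4 with medians equalised or TMM factors, 1 with no filter, 1 with the replicate block, 0 in the library-set fit, and 0 to 2 without 1 library. Higher LXR and efflux genes numbered 0 under each scaling, with no filter and in the library-set fit, and 0 to 1 without 1 library; lower transfer and storage genes numbered 0 in the library-set fit. In the related lists together, 12 were higher and 12 lower; the higher were 5 with medians equalised, 7 with TMM factors, 7 in the library-set fit and 7 to 11 without 1 library, and the lower were 3 in the library-set fit and 6 to 11 without 1 library. Lower calls in the related lists numbered 18 with medians equalised, 15 after quantile normalization and 17 with TMM factors. With the replicate block the calls of Ebp and Mbtps1 were lost, and 2768 genes were higher and 1045 lower. Deviations of same-numbered libraries from their group means had correlations of -0.11, -0.16 and -0.015. Those of differently numbered libraries ran from -0.074 to 0.19. With 3 libraries per group, these values cannot show whether same-numbered libraries share more than a number.

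Values of 9 uncalled members crossed 0. With medians equalised, Sqle, Tm7sf2, Msmo1, Hsd17b7, Sc5d, Insig2, Mbtps2 and Nr1h2 were at -0.26, -0.16, -0.070, -0.13, -0.21, -0.025, -0.078 and -0.19. With TMM factors, Sqle, Tm7sf2, Msmo1, Hsd17b7, Sc5d, Mbtps2 and Nr1h2 were at -0.20, -0.11, -0.0097, -0.073, -0.15, -0.017 and -0.12. After quantile normalization, Tm7sf2, Hsd17b7, Sc5d, Mbtps2 and Nr1h2 were at -0.21, -0.041, -0.16, -0.027 and -0.096. In the library-set fit Sqle and Hsd17b7 were at -0.17 and -0.040. Without 1 library, Sqle ranged from -0.039 to 0.10, Tm7sf2 from -0.067 to 0.23, Sc5d from -0.14 to 0.21, Scap from -0.17 to 0.028 and Nr1h2 from -0.038 to 0.17. Pmvk was left out by the filter of 4 CPM. At 1 read per 0.0321 to 0.0752 CPM, depth limits mainly Pmvk and Abcg1.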
